A study of Mus musculus with 12 samples.

Results

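The phase II detoxification enzymes of the mouse intestine were followed in this gene expression data set through 65 protein-coding genes, out of 53715 gene identifiers in the deposited table. They were chosen by name alone, as the genes whose symbol in GENCODE M21 begins with Ugt1a, Ugt2, Sult, Gsta, Gstm, Gstp, Gstt, Gsto, Gstk, Gstz or Mgst. By family these are 9 UDP-glucuronosyltransferases of the UGT1A locus, 10 of the UGT2 family, 21 sulfotransferases (SULT), 22 cytosolic or mitochondrial glutathione S-transferases (GST) and 3 microsomal ones (MGST). Another 8 entries with the same name beginnings are pseudogenes or otherwise not protein-coding there, and were left out.

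RNA of the ileal or colonic mucosa of 8-week-old male C57BL/6J mice was sequenced in 12 libraries, in 4 groups of 3. The control mice carry the Slc39a8-fl/fl genotype by the sample labels, whereas the study's methods say that its controls included floxed mice, wild-type mice and mice with Villin-Cre alone. The Slc39a8-IEC KO mice are Slc39a8-fl/fl:Villin-Cre, so they lack the metal transporter SLC39A8 only where the Villin promoter drives Cre, which is in intestinal epithelial cells. The RNA was primed with oligo-dT from whole mucosa, and each library is taken as 1 mouse, although the labels do not say whether ileum and colon came from the same mice. In such bulk RNA, fewer cells of a type and less RNA per cell cannot be told apart.

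Phase II enzymes make foreign and endogenous compounds more water-soluble by joining them to a charged or polar group. UGTs, in the endoplasmic reticulum, transfer glucuronic acid from UDP-glucuronic acid to substrates such as bilirubin, steroids and plant phenols. SULTs, mostly in the cytosol, transfer sulfate from the donor PAPS to phenols, steroids and catecholamines, and GSTs join glutathione to electrophiles. The gut epithelium, which meets dietary and microbial compounds first, is a site of all these reactions besides the liver. The mammalian UGT1A locus is built in an unusual way, with a separate first exon for each enzyme, which sets the substrate, spliced to one shared set of later exons.

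That shared set matters for every count given here to a Ugt1a gene. In GENCODE M21 the 9 Ugt1a genes, on chromosome 1 of GRCm38, have in common 1311 bases of exon, and 51.2% (Ugt1a6a) to 74.8% (Ugt1a6b) of the distinct 75-base windows of their transcripts also occur in another gene. A coding stretch at the start of exon 2 of the 5 exons of Ugt1a1, at chr1:88215044-88215118 on the plus strand, shows what a read from the shared part looks like. All 9 genes hold these 75 bases, so a read inside them names none of the 9:

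Ugt1a: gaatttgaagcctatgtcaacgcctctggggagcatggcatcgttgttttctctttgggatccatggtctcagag

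A read from a first exon can name its gene, but Ugt1a6a and Ugt1a6b are close copies even there. Over their whole coding sequence of 1593 bases, shared exons included, they have 98.4% identity and 26 differing columns. The 60 coding bases in which they differ most are in exon 1 of both, at chr1:88138769-88138828 and chr1:88107237-88107296, and hold 9 differing bases, printed in capitals:

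Ugt1a6a: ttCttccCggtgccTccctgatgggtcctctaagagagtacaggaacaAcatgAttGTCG
Ugt1a6b: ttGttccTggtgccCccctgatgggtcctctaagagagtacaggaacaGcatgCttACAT

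The pi class has such a pair too. Gstp1 and Gstp2, neighbours on the minus strand of chromosome 19, share 98.1% of 630 coding bases, and 29.2% of the 75-base windows of Gstp1 and 50.1% of those of Gstp2 occur in other genes. Their most differing stretch is in exon 5 of 7, at chr19:4036694-4036753 and chr19:4040988-4041047, with 5 differing bases in capitals:

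Gstp1: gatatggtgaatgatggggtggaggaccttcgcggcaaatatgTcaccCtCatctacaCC
Gstp2: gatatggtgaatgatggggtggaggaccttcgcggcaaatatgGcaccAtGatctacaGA

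In the alpha class, Gsta1 shares 84.7% of its windows with other genes, mostly with Gm3776, Gsta2 and Gm10639, and is 97.6% identical to Gsta2 over their aligned coding bases. The deposited values carry the mark of this sharing, since they are expected counts, in which a read that fits several genes can be split between them and a value can be a fraction. Of the values above 0, 97.2% were not whole (within 1e-09) for the UGT1A genes, 66.7% for GST pi and 48.9% for GST alpha, against 15.9% over all genes and none for GST mu, MGST or SULT. No source used here says how the reads were split, so single values of these pairs, and of the Ugt1a genes, are uncertain. A sum over the Ugt1a genes keeps the reads shared among them together, but Gstp1 and Gstp2 also share 15.1% and 28.4% of their windows with Gstp-ps, and Gsta1 shares 69.3% with Gm3776, which are in no sum here.

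The libraries held 16749138 to 27903083 expected counts. Counts were rounded, scaled by TMM (edgeR's correction for differences in RNA composition) and given as CPM (counts per 1000000 counts of the scaled library). Of the 65 genes, 42 passed edgeR's filter on low counts and were tested, 12 had counts below it, and 11 had no count in any library. The last were Sult2a1 to Sult2a8, Sult3a1, Sult3a2 and Ugt2b37, the SULT2A and SULT3A genes being known mainly from mouse liver. A gene without a count in a library of 16749138 counts could still have been present at up to 3 counts, the limit that a count of 0 allows. Genes were called by edgeR's quasi-likelihood test at a Benjamini-Hochberg adjusted p under 0.1, over all 16558 genes tested. Slc39a8 itself, the check of the genotype labels, was lower in KO mice without overlap in both tissues. Its ileal range was 5.22 to 8.39 CPM in control and 2.62 to 4.35 in KO mice, and its colonic range was 20.1 to 20.8 and 7.35 to 11.5 CPM. Over both tissues its log2 fold change of KO over control was -1.13 ± 0.17 (SE), with an adjusted p of 0.38 in edgeR. The deleted gene itself was thus not called by edgeR over both tissues, nor in ileum or colon alone. The paper, with DESeq2 on ileum and colon combined, reports Slc39a8 as lower in KO mice at an adjusted p under 0.1.

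The tissue labels held in their defining transcripts, but 3 ileal libraries stood apart. Fabp6, an ileal bile acid carrier, was at 3362 to 7110 CPM in ileum and 5.76 to 26.8 in colon. Ileum KO replicate 2 also held colonic transcripts, with Car1 at 2632 CPM against 3.4 to 144 in the other ileal and 14884 to 27124 in the colonic libraries, and Aqp8 at 67.3 CPM against at most 0.358 in the other ileal libraries. Summed over the 5 colonic epithelial markers, of which Hoxb13 and Hoxd13 were at or near 0 everywhere, the ileal control libraries were at 146 to 350 CPM and the ileal KO libraries at 156 to 2965. Ileum control replicate 3 and ileum KO replicate 1 held little smooth muscle, with Acta2 at 7.14 and 4.89 CPM against 398 to 537 in the other ileal libraries. Where 1 of these 3 libraries decided a value, the value without it is given too.

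The level of each gene differed far more between genes than between libraries of a tissue. Per kilobase of exon, the scale on which genes can be compared, the highest mean level in ileal control mice was that of Mgst3, a microsomal glutathione transferase and peroxidase, at 383 ± 129 CPM per kb (SD, n = 3). Ugt2b34 followed at 173 ± 38.8, Sult1b1 at 148 ± 70.2, Sult1d1 at 140 ± 60.5 and Mgst1 at 128 ± 41.4 CPM per kb, and these 4 did not differ beyond their spread. Gsto1 (105 ± 12.6), Gstp1 (79.5 ± 34.5) and Gsta1 (72.9 ± 36.2 CPM per kb) completed the first 8.

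In colonic control mice Mgst3 was again highest, at 767 ± 128 CPM per kb, and Sult1d1, an enzyme that sulfates catecholamines and other phenols, was second at 435 ± 101. Below Ugt2b34 at 249 ± 17.7, the next places went to Sult1a1 at 216 ± 32.5 and Ugt1a1 at 215 ± 18.8 CPM per kb, of which Sult1a1 was absent from the first 12 in ileum. Gsto1 at 193 ± 4.26, Gstp1 at 181 ± 22.9 and Sult1b1 at 129 ± 32.2 CPM per kb came after them. The places from Sult1a1 to Gstp1 overlapped within their spread. Added over all 65 genes, the level was 3402 ± 726 CPM in ileal control, 3375 ± 298 in ileal KO, 6938 ± 805 in colonic control and 6176 ± 663 in colonic KO mice (SD, n = 3), and the 2 tissues did not overlap.

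**Figure D1:**
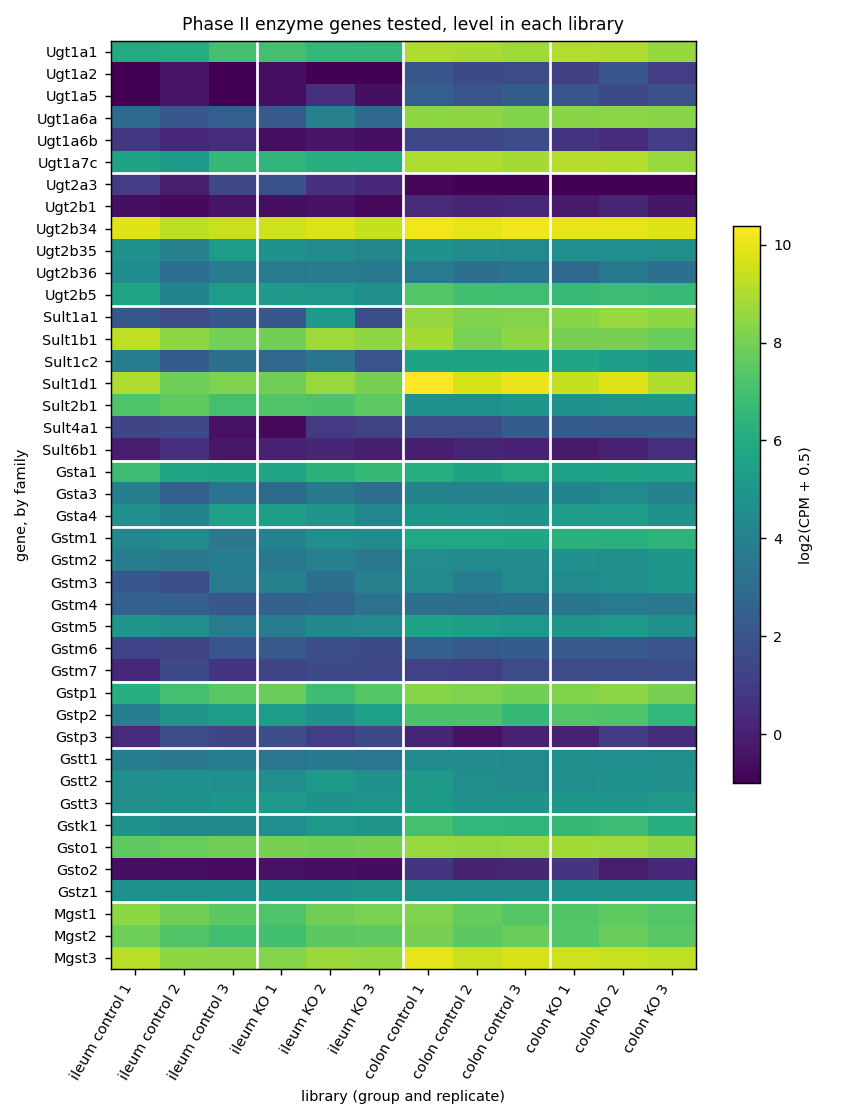
Level of the 42 tested genes in each of the 12 libraries, as log2(CPM + 0.5) by colour (yellow is high), with genes in rows by family and libraries in columns by group; the white lines part families and groups. The rows of Sult1a1 and Ugt1a6a change from dark in ileum to bright in colon, Sult2b1 does the reverse, and Mgst3, Sult1d1 and Ugt2b34 are bright in both.

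Between the tissues, colon held more of most of these transcripts. In control mice, 25 of the 42 tested genes were higher and 3 lower in colon than in ileum, that is 59.5% and 7.14%, where 16.2% and 19.6% of all genes tested were called higher and lower. In KO mice 24 were higher and 2 lower, with 17.1% and 20% over all genes. The median log2 fold change of the 42 genes was 0.86 in control and 0.88 in KO mice, with 0.02 and 0.01 over all genes. In both genotypes, 26 genes were higher in all 3 colonic than in all 3 ileal libraries of the same genotype (15.7% of all genes). By the same rule, 4 were lower (17% of all genes). Under library size as the only scaling, 27 were higher and 3 lower in control mice, while the shares over all genes moved to 25.1% and 12.7% and their median to 0.24. The markers of epithelium moved the other way: all 7 (Epcam, Vil1, Cdh1, Krt8, Krt18, Krt20 and Cldn7) were lower in colon, and their sum was 16773 to 21629 CPM in ileum and 8403 to 9704 in colon. Muscle markers were not called between the tissues, although their levels were not alike. Their sum was 34.2 to 2643 CPM in ileal control and 20.2 to 2035 in ileal KO libraries. In colon it was 2614 to 3954 CPM in control and 2536 to 3444 in KO libraries. The part of tissue makeup in the enzyme differences was not tested.

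**Figure D2:**
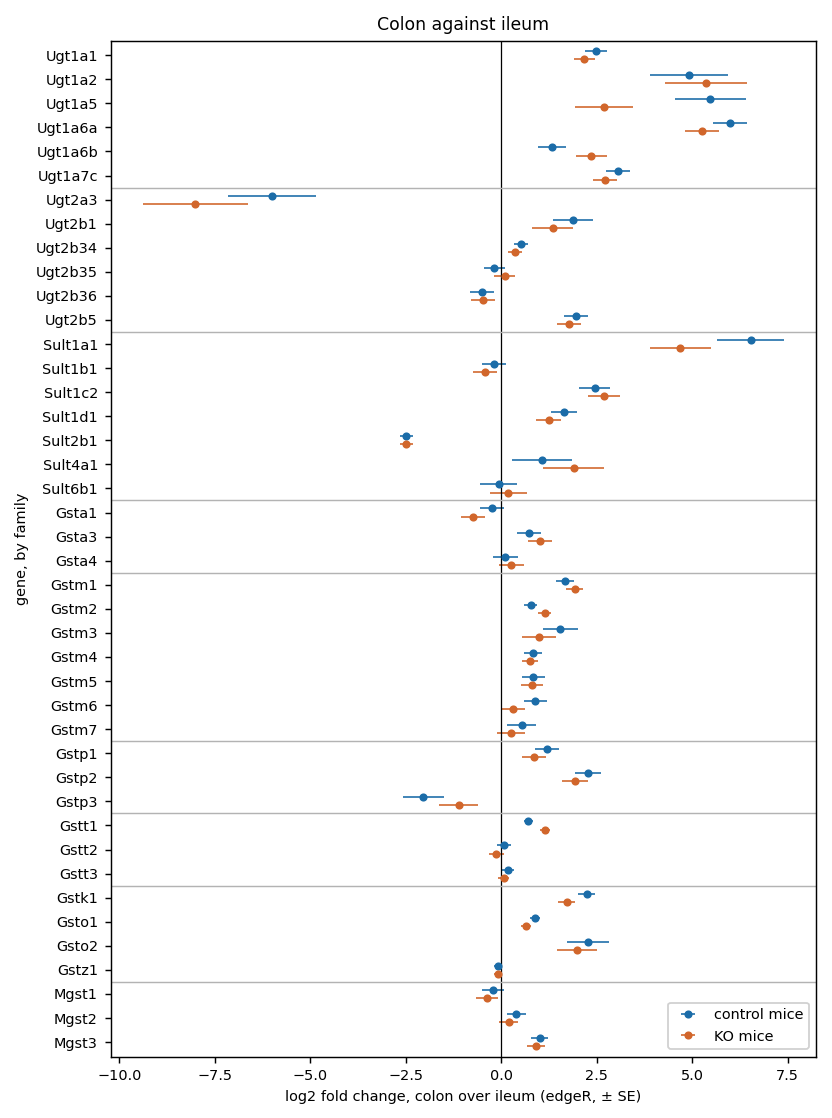
Log2 fold change of colon over ileum from edgeR, with its standard error, for the 42 tested genes by family, in control mice (blue) and KO mice (orange). Values right of 0 are higher in colon; all 6 UGT1A genes and all 7 GST mu genes lie there in both genotypes, and Ugt2a3, Sult2b1 and Gstp3 lie left of 0 in both.

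The UGT1A genes rose together. All 6 that were tested were higher in colon in both genotypes, and the other 3, Ugt1a8, Ugt1a9 and Ugt1a10, had few counts or none. Ugt1a1, the bilirubin glucuronosyltransferase, was at 62.4, 65.5 and 130 CPM in ileal control and 131, 91.9 and 94.3 in ileal KO libraries. The colonic values were 514, 489 and 433 CPM in control and 531, 512 and 383 in KO mice. No colonic library overlapped the ileal ones, and in ileum the pair with little muscle was the highest in each genotype. In control mice the log2 fold change was 2.48 ± 0.28 (SE), or 5.57-fold (adjusted p = 6.4e-05).

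Ugt1a7c, which glucuronidates phenols, behaved alike, at 48.1, 36.6 and 93.8 CPM in ileal control and 502, 520 and 456 in colonic control libraries, with 89.5, 69.3 and 66.1 and 548, 535 and 390 CPM in the KO mice of ileum and colon. Its log2 fold change in control mice was 3.05 ± 0.31 (adjusted p = 3.0e-05). Ugt1a6a, a small planar phenol glucuronosyltransferase, was nearly missing from ileum: 7.45, 3.72 and 4.84 CPM in control libraries against 352, 354 and 300 in colonic control libraries. In KO mice it was at 4.11, 15 and 6.58 CPM in ileum and 327, 341 and 325 in colon, and the highest ileal value was that of KO replicate 2, the library with colonic transcripts. The log2 fold change of Ugt1a6a was 5.98 ± 0.45 in control mice, or 63.1-fold (adjusted p = 3.0e-06), and 5.26 ± 0.44 in KO mice, which became 5.94 ± 0.34 without KO replicate 2.

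Added together, so that the division of reads among them does not matter, the 9 genes were at 107 to 230 CPM in the 6 ileal and 1104 to 1412 in the 6 colonic libraries. As 1 locus they were 8.65-fold higher in colon in control mice (log2 fold change 3.11 ± 0.28, adjusted p = 1.2e-05) and 6.84-fold higher in KO mice (2.77 ± 0.28, adjusted p = 2.6e-05). In every library 98.8% to 99.5% of the sum was given to Ugt1a1, Ugt1a6a and Ugt1a7c. Gm20528, on the opposite strand, overlaps 922 exon bases of Ugt1a1 (41.5%) and 394 to 534 of each other Ugt1a gene. Since the use of strand in counting is not stated, the sum is not free of that overlap. With the locus counted once, 20 of 37 tested genes were higher and 3 lower in colon in control mice. Over all 16553 genes of that fit, 2685 were higher and 3251 lower.

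**Figure D3:**
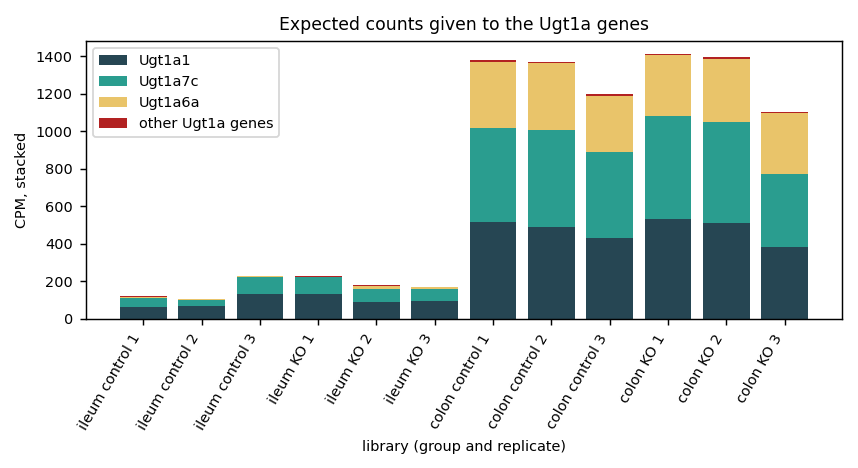
Stacked bars of CPM given to the Ugt1a genes in each library, for Ugt1a1, Ugt1a7c, Ugt1a6a and the other 6 genes together, with libraries on the horizontal axis. The colonic bars reach 1104 to 1412 CPM and the ileal ones 107 to 230, Ugt1a6a makes a visible layer in colon only, and the other 6 genes are barely visible.

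The minor UGT1A genes were read with more doubt. Ugt1a5 held 5 expected counts over the 3 ileal control libraries and 261 over the colonic ones, a ratio of depth-scaled counts of 47.9 (95% counting interval 20.3 to 149), and Ugt1a2 held 5 against 178, a ratio of 32.7 (13.7 to 102). These intervals cover counting error only. All 5 ileal counts of each gene were in control replicate 2, and without it both were at 0 in ileal control mice. Their fitted log2 fold changes then moved from 5.47 to 9.46 for Ugt1a5 and from 4.92 to 8.92 for Ugt1a2, values that depend on the fit's prior count and are no bounds. Ugt1a6b was at 1.26, 0.722 and 0.85 CPM in ileal and 2.2, 2.3 and 2.59 in colonic control libraries, a log2 fold change of 1.33 ± 0.36 (adjusted p = 0.017). Ugt1a9 was the one member of the locus given counts in ileum and none in colon, with 22 counts in ileal control mice and 29 in ileal KO mice against 0 in colon. With colon set at a floor of 3 counts per group, ileum was 7.99-fold higher in control and 9.84-fold higher in KO mice. The lower 95% counting limits from the counts themselves were 5.97 and 7.51. The ileal counts of Ugt1a9 lay in control replicate 3 (0.935 CPM), KO replicate 1 (1.19) and KO replicate 3 (0.426). The first 2 of these are the libraries with little muscle, and without them Ugt1a9 had 0 ileal counts in control mice, as in colon, and 9 in KO mice.

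Of the UGT2 genes, which act on steroids, bile acids and drugs, 3 of the 6 tested were higher in colon and 1 lower in control mice. Ugt2b34 dominated the family in both tissues, at 930, 603 and 705 CPM in ileal and 1113, 985 and 1121 in colonic control libraries. Its difference was small, with a log2 fold change of 0.52 ± 0.18 (adjusted p = 0.046), it was not called in KO mice (0.36 ± 0.18, adjusted p = 0.15), and the call in control mice was lost under 6 alternatives, with adjusted p from 0.1 to 0.15. Ugt2b5 was 3.89-fold higher in colon, at 49.6, 17.1 and 37.1 CPM against 163, 121 and 119 (log2 fold change 1.96 ± 0.31, adjusted p = 6.3e-04). It shares 30.4% of its windows with Ugt2b38 and Ugt2b37, of which the first was nearly and the second fully without counts. Ugt2b1 was higher at a low level, with 44 against 11 counts in control mice. Ugt2a3 was on the ileal side, at 1.6, 0.444 and 2.25 CPM in control and 2.98, 1.06 and 0.711 in KO ileum. In colon it had 1 count over the control and 0 over the KO libraries, so that ileum was at least 31.2-fold higher in KO mice over the floor of 3 counts per group.

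The sulfotransferases split into genes of colon, genes of ileum and genes that were not called between them. Sult1a1, the main phenol sulfotransferase, had the largest log2 fold change of the 42 tested genes in control mice. It was at 3.93, 2.67 and 3.91 CPM in ileal control and 379, 285 and 310 in colonic control libraries, and at 3.7, 34.5 and 2.84 in ileal KO and 325, 396 and 350 in colonic KO libraries. All colonic libraries were above all ileal ones, and the ileal library at 34.5 CPM was again KO replicate 2. The log2 fold change was 6.53 ± 0.88 in control mice (92.6-fold, adjusted p = 2.1e-04), and 4.69 ± 0.79 in KO mice, which became 6.77 ± 0.28 without that library. An overlap of 61 bases with Sgf29 on the opposite strand touches 4.0% of its exon bases, and whether the counting used strand is not stated.

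Sult1d1 was at 512, 229 and 289 CPM in ileal and 1326, 832 and 1053 in colonic control libraries, and at 241, 390 and 259 against 666, 912 and 525 in KO mice. The groups did not overlap between tissues, and the log2 fold change was 1.64 ± 0.33 in control (adjusted p = 0.0033) and 1.24 ± 0.33 in KO mice (adjusted p = 0.015). Sult1c2 was 5.41-fold higher in colonic than in ileal control mice (log2 fold change 2.44 ± 0.41, adjusted p = 0.0011), at 47.3 to 48.2 against 4.67 to 13.4 CPM.

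Sult2b1, which sulfates cholesterol and other hydroxysteroids, went the other way. It was at 149, 193 and 126 CPM in ileal control and 156, 144 and 188 in ileal KO libraries, and at 27.3, 25.6 and 30.5 and 27.1, 28.8 and 30.8 in colon. The log2 fold change of colon over ileum was -2.49 ± 0.17 in control mice (adjusted p = 1.2e-06), and in KO mice it was -2.49 ± 0.17 as well. Sult1b1, a sulfotransferase of thyroid hormones and phenols that ranked high per kilobase in both tissues, was not called between them, at 629, 349 and 254 against 452, 275 and 346 CPM in control mice (log2 fold change -0.20 ± 0.31, adjusted p = 0.67). Exact permutation of the tissues within each genotype gave p = 0.005, two-sided and the smallest that 400 arrangements can give, for Sult1a1, Sult1d1, Sult2b1, Ugt1a1, Ugt1a6a and Ugt1a7c. If each mouse gave both tissues these arrangements are not the right ones. Any gene without overlap in the same direction in both genotypes has this p of 0.005 by construction. That held for 15.7% of all genes as higher and 17% as lower in colon.

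**Figure D4:**
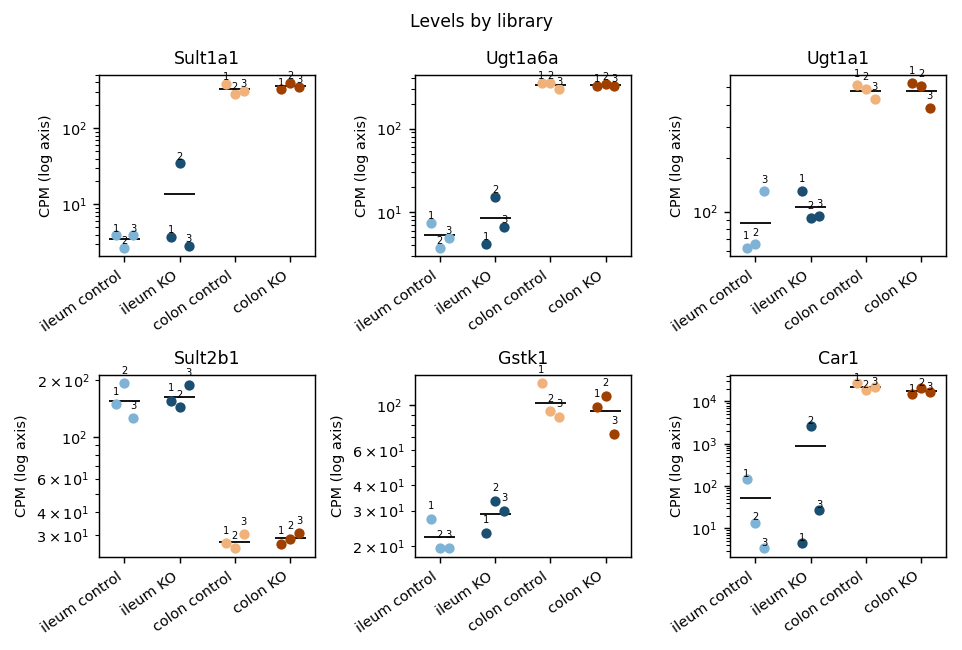
CPM of 5 enzyme genes and of the colonic marker Car1 in each library on log axes, by group, with a black line at the group mean and the replicate number at each point. In Sult1a1, Ugt1a6a and Car1, ileum KO replicate 2 lies above the other ileal libraries (34.5, 15 and 2632 CPM), whereas Sult2b1 is at 126 to 193 CPM in ileum and 25.6 to 30.8 in colon.

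Of the 20 tested cytosolic or mitochondrial GST genes, 12 were higher and 1 lower in colon in control mice. In the mu class, whose members detoxify aromatic electrophiles, 6 of 7 genes were higher in colon in control mice and 4 in KO mice, and summed CPM was 59.2 to 81.7 in ileum and 143 to 191 in colon. Gstm1 led, at 19.1, 21.1 and 11 CPM in ileal and 55.7, 55 and 51.8 in colonic control libraries (log2 fold change 1.67 ± 0.23, adjusted p = 2.2e-04). Gstm3 followed at 3.73, 2.83 and 12.2 against 20.4, 13.5 and 21.2 CPM (1.54 ± 0.46, adjusted p = 0.029). Its high ileal value was that of a library with little muscle, and without both such libraries the value was 2.47 ± 0.31. Gstm6, at 0.89 ± 0.31 (adjusted p = 0.055), lost its call under 6 alternatives, with adjusted p from 0.1 to 0.16.

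In the pi class, Gstp1 and Gstp2 were higher and Gstp3 lower in colon. Gstp1 was at 68.9, 125 and 176 CPM in ileal and 315, 284 and 244 in colonic control libraries (log2 fold change 1.19 ± 0.31, adjusted p = 0.014), and its near copy Gstp2 at 14, 29.5 and 37 against 141, 148 and 97.2 (2.26 ± 0.34, adjusted p = 5.2e-04). Summed over the class, ileum was at 83.7 to 258 CPM and colon at 342 to 491, so that the groups stayed apart however reads were divided within the class. Reads shared with Gstp-ps are not in this sum. Gstp3, a low gene with 111 counts in ileal and 28 in colonic control mice, was lower in colon (log2 value -2.04 ± 0.54, adjusted p = 0.015), and in KO mice it was not called (log2 value -1.12 ± 0.51, adjusted p = 0.12).

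Gstk1, the mitochondrial and peroxisomal kappa enzyme, was at 27.2, 19.6 and 19.5 CPM in ileal control and 129, 93.3 and 87.5 in colonic control libraries, and at 23.2, 33.4 and 29.9 against 98.7, 111 and 72.4 in KO mice. The tissues did not overlap, and the log2 fold change in control mice was 2.23 ± 0.23 (4.68-fold, adjusted p = 2.6e-05). Gsto1, a thioltransferase and dehydroascorbate reductase, had the highest mean per kilobase of the single cytosolic GST genes in control mice of both tissues. Its range overlapped that of Gstp1 in each. Gsto1 was 1.83-fold higher in colon (log2 fold change 0.87 ± 0.13, adjusted p = 4.9e-04), from 187 to 238 CPM in ileum to 380 to 397 in colon. Gsto2 was higher at under 1.2 CPM, with 49 counts against 9 in control mice. The theta gene Gstt1 was 1.63-fold higher (0.71 ± 0.13, adjusted p = 0.0022).

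The alpha class had no call in control mice. Gsta1, at 110, 52 and 47.4 CPM in ileal and 67.5, 47.1 and 61.9 in colonic control libraries, was not called (log2 fold change -0.24 ± 0.31, adjusted p = 0.6). Gsta2 had 14 and 32 counts in these groups and was not tested. Among the microsomal enzymes, Mgst3 was 2-fold higher in colon, at 584, 346 and 332 against 987, 707 and 829 CPM (adjusted p = 0.0071, with an SE of 0.23 on the log2 scale). Mgst1 was not called, at 346, 244 and 181 against 292, 204 and 166 CPM (-0.22 ± 0.28, adjusted p = 0.6).

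Genes that serve these enzymes were examined through 4 further lists. The counts of all 4 lists are to be read beside the shares over all genes tested, 16.2% higher and 19.6% lower in colon in control mice. The lists are short, and no set test was run. Of 10 genes that supply cofactors, 7 were higher and 1 lower in colon in control mice. Ugdh, which makes UDP-glucuronic acid, was at 188 to 271 CPM in ileal and 1471 to 1564 in colonic control libraries (log2 fold change 2.69 ± 0.18, adjusted p = 1.2e-06). Slc35d1, which carries UDP-glucuronic acid into the endoplasmic reticulum, was higher in colon by 2.35 ± 0.19 on the log2 scale (adjusted p = 4.3e-06). The 2 PAPS synthases moved apart: Papss2 was higher in colon at 1.88 ± 0.12 (adjusted p = 9.7e-07) and Papss1 lower at -0.70 ± 0.21 (adjusted p = 0.027). Of 6 conjugate efflux transporters, 2 were higher and 2 lower. Abcc2, on the apical membrane, was at 114 to 246 CPM in ileal and 13.2 to 19.7 in colonic control libraries (log2 value -3.51 ± 0.39, adjusted p = 5.3e-05), and Abcc3, on the basolateral one, at 40.5 to 87.5 against 321 to 363 CPM (2.33 ± 0.32, adjusted p = 2.7e-04).

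Of 8 tested genes of other conjugating and related enzymes, 3 were higher and 1 lower in colon, led by the quinone reductase Nqo1 at 1.63 ± 0.18 (adjusted p = 5.9e-05) and the epoxide hydrolase Ephx1 at 1.26 ± 0.30 (adjusted p = 0.0086). Of 12 xenobiotic and regional regulators, 3 were higher and 3 lower, with Hnf4g at -2.82 ± 0.29 (adjusted p = 2.6e-05) and Nr1i3, the nuclear receptor CAR, at -1.86 ± 0.35 (adjusted p = 0.002) as the largest. Nfe2l2, which encodes the oxidative stress regulator NRF2, was higher at 1.17 ± 0.15 (adjusted p = 1.4e-04).

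Upstream sequence of these genes was searched on both strands for 2 short motifs, in RefSeq windows from 250 bases before to 50 after each start (GRCm38.p6), which were found for 58 of the 65 genes. The core of the site of the epithelial factor HNF1, searched as GTTAAT, then any base, then ATT, occurs in 0.4% of all promoters and in those of 8 of the 58 genes: Ugt1a1, Ugt1a9, Ugt1a10, Sult1d1 and Sult2a3 to Sult2a6. TGACNNNGC, a core of the antioxidant response element, occurs in 12.39% of all promoters and in those of 4 of the 58, Gsta3, Gstm5, Gstm7 and Mgst1. A match is a string of letters, not a site shown to be bound. The 120 bases before the start are shown for 3 genes with a match to the first motif, in capitals on the strand printed, and for the 2 genes with the largest rise towards colon in control mice, which have a match to neither motif in the window:

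Ugt1a1: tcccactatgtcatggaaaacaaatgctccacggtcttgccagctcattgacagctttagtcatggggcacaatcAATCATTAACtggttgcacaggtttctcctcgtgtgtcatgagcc
Sult1d1: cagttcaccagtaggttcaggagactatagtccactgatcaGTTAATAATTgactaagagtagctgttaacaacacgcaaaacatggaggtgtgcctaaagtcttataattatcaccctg
Ugt1a9: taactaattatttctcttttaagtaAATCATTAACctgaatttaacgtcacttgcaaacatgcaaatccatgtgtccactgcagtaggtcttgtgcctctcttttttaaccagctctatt
Sult1a1: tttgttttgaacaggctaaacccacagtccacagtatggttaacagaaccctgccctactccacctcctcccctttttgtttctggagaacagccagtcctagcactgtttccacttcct
Ugt1a6a: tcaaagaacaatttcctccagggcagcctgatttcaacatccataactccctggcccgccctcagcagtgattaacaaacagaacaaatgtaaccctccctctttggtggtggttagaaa

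These lie at chr1:88211839-88211958 (plus strand), chr5:87569007-87569126 (minus), chr1:88070659-88070778 (plus), chr7:126676419-126676538 (minus) and chr1:88134689-88134808 (plus). The genes with the first motif did not share one pattern: Ugt1a1 and Sult1d1 were higher in colon, Ugt1a9 had counts in ileum alone, Ugt1a10 was listed at 0 in 11 of 12 libraries and the SULT2A genes had no count.

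Loss of Slc39a8 in the epithelium was compared next, as the contrast the study was built for. No gene of the 65 was called in ileum, in colon, over both tissues or in the difference between them, and 0% of all 16558 genes were called in these 4 comparisons by edgeR. Slc39a8, the deleted gene, was among the genes that edgeR did not call. At an unadjusted p under 0.05 there were 5 of the 42 in ileum (1.52% of all genes), 2 in colon (2.33%), 4 over both tissues (3.87%) and 2 in the difference (1.02%). DESeq2 and limma-voom called none of the 65 either, and few genes of the whole table. Of 28017 genes, DESeq2 called 3 higher and 1 lower over both tissues, 2 higher in ileum and 1 lower in the difference. Of 16558 genes, limma-voom called 1 lower in ileum and 1 lower over both tissues. Leaving out single libraries moved the count in ileum at an unadjusted p under 0.05 to between 2 and 9. It was 2 without ileum KO replicate 2 (2.25% of all genes) and 9 without ileum control replicate 3 (8.34%). Without both libraries with little muscle it was also 9 (4.98%). A fall to 2 was not particular to ileum KO replicate 2. The count was also 2 without colon control replicate 1 or 3, or without any 1 colon KO library. Over all genes, 215 to 250 were under 0.05 in those fits.

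Ugt1a6b had the smallest p over both tissues, and in control ileum it was at 1.26, 0.722 and 0.85 CPM against 0.179, 0.313 and 0.189 in KO ileum. In colon it was at 2.2, 2.3 and 2.59 CPM in control against 1.18, 0.881 and 1.58 in KO libraries. It was the one tested gene of the 65 whose groups did not overlap in either tissue, where 0.411% of all genes did so. The log2 fold change of KO over control was -1.39 ± 0.29 over both tissues (unadjusted p = 4.1e-04, adjusted p = 1), -1.99 ± 0.41 in ileum and -0.96 ± 0.35 in colon, and exact permutation of genotypes within tissue gave p = 0.005, two-sided and the smallest that 400 arrangements can give. These are 15 to 146 expected counts a group of a gene of which 74.8% of windows are shared. The locus as a whole differed by 0.16 ± 0.18 over both tissues (adjusted p = 1), and Ugt1a6a by 0.31 ± 0.27.

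The other 3 genes with an unadjusted p under 0.05 over both tissues were of the mu class. Their log2 fold changes of KO over control were 0.43 ± 0.15 for Gstm1, 0.78 ± 0.32 for Gstm3 and 0.48 ± 0.15 for Gstm4, each with an adjusted p of 1 in edgeR's quasi-likelihood test. Of the other 4 genes of the class, Gstm5 was at -0.40 ± 0.20, Gstm6 at 0.04 ± 0.23, Gstm2 at 0.16 ± 0.12 and Gstm7 at 0.51 ± 0.26. In ileum, the value of Gstm3 was 1.06 ± 0.46 and became 2.01 ± 0.33 without ileum control replicate 3 (adjusted p = 0.51 in edgeR), and over both tissues it was 0.97 ± 0.25 without both libraries with little muscle (adjusted p = 0.34). In colon, Gstm1 was at 55.7, 55 and 51.8 CPM in control and 79.6, 73.4 and 84.7 in KO libraries, and Gstm4 at 8.4, 8.16 and 8.33 against 10.3, 12.3 and 11.2, both without overlap. In ileum their groups overlapped. Gstm2, also of this class, was at 23.7, 20.4 and 21.9 against 26.3, 25.2 and 32.2 CPM in colon (0.34 ± 0.16, unadjusted p = 0.06), whereas Gstm5 and Gstm6 were at -0.42 ± 0.29 and -0.25 ± 0.31 there. Over the class, the summed level in colon was 143 to 163 CPM in control and 175 to 191 CPM in KO mice. In ileum the sums overlapped, at 59.2 to 74.5 CPM in control and 67.3 to 81.7 CPM in KO mice. Groups did not overlap in colon for 6 of the 42 genes that were higher (6.98% of all genes) and 3 that were lower (5.85%).

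The log2 fold change of Sult1a1 in ileum was 1.98 ± 0.75 (unadjusted p = 0.022, adjusted p = 1), which came from KO replicate 2 alone and was -0.10 ± 0.23 without it. In the difference between tissues, Ugt1a5 was at -2.78 ± 1.19 (unadjusted p = 0.039), with 5 and 31 counts in ileal control and KO mice, and -1.51 ± 1.19 without KO replicate 2. Without ileum control replicate 2, which held all 5 control counts, the fitted value was -6.78. Gstt1 was at 0.44 ± 0.19 in that comparison (unadjusted p = 0.038), being 14.2, 11.1 and 14.1 against 10.6, 11.7 and 10.5 CPM in ileum and 22, 21.7 and 20.6 against 24.5, 23.5 and 24.4 in colon. For the 10 genes among the first 8 per kilobase in either tissue, KO minus control over both tissues on the log2 scale ran from -0.41 ± 0.22 (Sult1d1) and -0.39 ± 0.21 (Sult1b1) to 0.98 ± 0.56 (Sult1a1), the last being 0.05 ± 0.14 without KO replicate 2. Between these were -0.31 ± 0.19 for Mgst1, -0.25 ± 0.15 for Mgst3, -0.13 ± 0.22 for Gsta1, -0.04 ± 0.12 for Ugt2b34, 0.14 ± 0.19 for Ugt1a1, 0.17 ± 0.09 for Gsto1 and 0.27 ± 0.21 for Gstp1, each with an adjusted p of 1 in edgeR. None of the genes of the 4 further lists was called by genotype either.

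**Figure D5:**
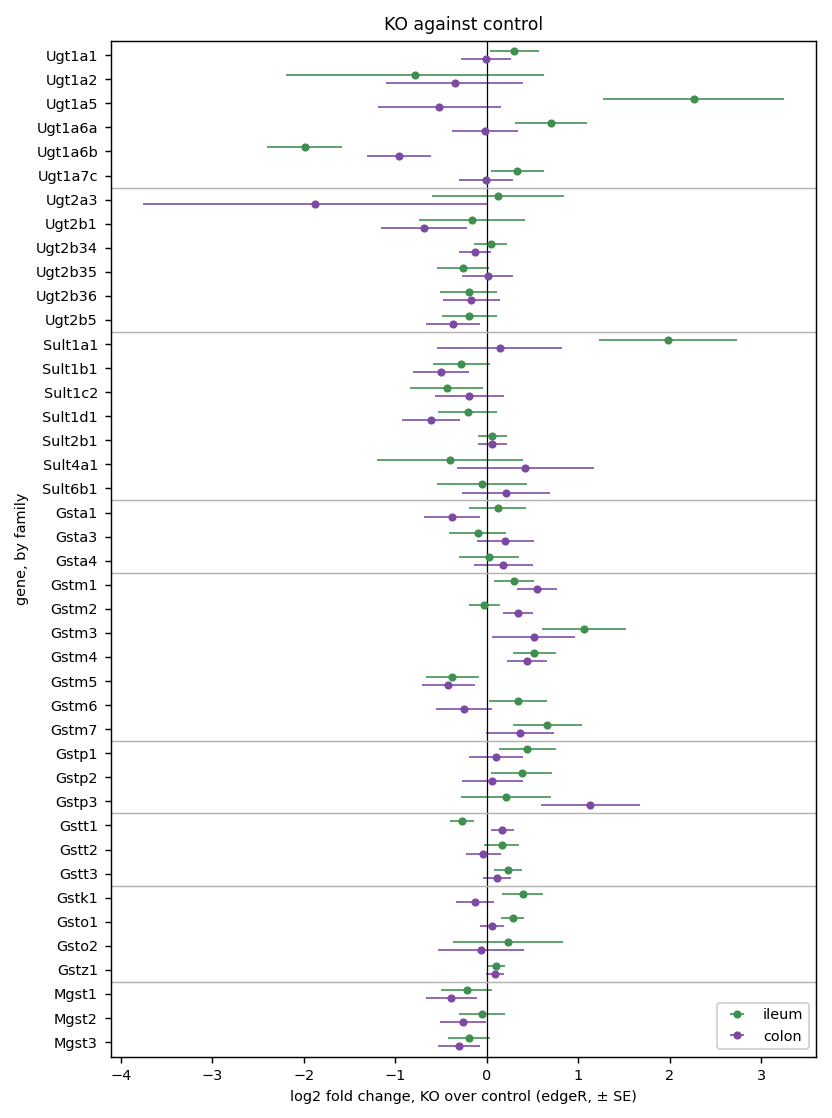
Log2 fold change of KO over control from edgeR, with its standard error, for the 42 tested genes by family, in ileum (green) and colon (purple). Most values lie near 0; Ugt1a6b is left of 0 in both tissues, Sult1a1 and Ugt1a5 are at 1.98 and 2.26 in ileum and at 0.14 and -0.52 in colon, and Ugt2a3 in colon rests on 1 count.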

How the data were processed

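The authors deposited 1 table of expected counts per gene, not normalized. The labels name STAR and mm10. The methods name STAR, an Ensembl reference and DESeq2, and the Reporting Summary a Gencode annotation, uniquely mapped reads, UMI-tools and FeatureCounts. None of these sources names the program behind the expected counts. Spike-in lines (92, no count) were left out. GENCODE M21 gave symbols, coordinates and transcripts, and 59 of the 65 gene IDs had the same version there. No protein sequences were used here.

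Rounded counts were fitted over all genes with edgeR 4.0.16 (R 4.3.3; filterByExpr, TMM, glmQLFTest), as a model of the 4 groups or, for genotype over both tissues, with tissue as an additive term. SE is the log2 fold change over the root of its F statistic. Alternatives were DESeq2 1.42.0, limma-voom 3.58.1, other scalings, filters, thresholds and libraries left out. Exact permutation tests used log2(CPM + 0.5) and scipy 1.17.1. P-values from 3 against 3 libraries by permutation cannot go below 0.1. The fits were tested on simulated data.

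Members, lists and tests were chosen with earlier results of these data known. Genes named by rule were, per family, the 3 largest changes in each direction among those called between tissues in control mice, the 8 highest per kilobase in each tissue, the 3 smallest p in each genotype comparison, all Ugt1a genes and genes sharing sequence with these. Others named among the 65 were chosen after their values were seen. Of the marker lists, Paneth cell (4 of 5), ileal enterocyte (5 of 5), plasma cell (3 of 5), T and B cell (3 of 5) and liver (2 of 2 tested) genes were lower in colon, colonic epithelium (3 of 3 tested) higher, goblet cell 2 higher and 3 lower, and no smooth muscle, stroma or glia and neuron gene was called in control mice. No pancreatic acinar gene passed the filter. Over all genes tested, 16.2% were higher and 19.6% lower in colon in control mice.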

Additional observations from a re-analysis of the deposited data

How the results depend on the processing

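Over the alternatives, the count of genes called between the tissues was 23 to 30 in control mice (28 as reported) and 21 to 29 in KO mice (26 as reported), the lowest with the Ugt1a genes counted once and the highest with library size as the only scaling or, in KO mice, also without the 2 ileal libraries with few muscle transcripts. With the Ugt1a genes counted once, 2685 of all 16553 genes were higher and 3251 lower in control mice, and 2834 and 3309 in KO mice. With library size alone, 4156 of all 16558 genes were higher and 2102 lower in control mice, and 4637 and 1908 in KO mice. Leaving out each library in turn gave 25 to 29 and 22 to 28. Over all genes, these fits called 2018 to 2994 higher and 2575 to 3452 lower in control mice. In KO mice they called 2023 to 3419 higher and 2406 to 3747 lower. None of the 65 genes was called by genotype under any alternative. Over all genes, the most called by genotype were 4 higher and 1 lower, over both tissues without the 2 ileal libraries with few muscle transcripts. Without the 2 ileal libraries with few muscle transcripts, 5 genes in place of 2 were lower in colon in KO mice. Over all genes, 3667 of 16896 were then lower, in place of 3312 of 16558. Of 27 named tissue differences, 625 alternative values kept direction and call and 12 lost the call, all of Gstm6 or Ugt2b34. Of 12 named genotype differences, 275 kept their direction and 1 changed it: Sult1a1 in ileum, with log2 fold changes of -0.10 (without ileum KO replicate 2) to 2.46 on leaving out single libraries. Between ileum and colon, the r of the deviations of same-numbered libraries was 0.192, 0.051 and 0.251 in KO mice. In control mice it was -0.053, 0.165 and -0.08. Differently numbered libraries of the 2 tissues gave -0.207 to 0.054 in KO and -0.183 to 0.161 in control mice. These values do not settle whether a mouse gave both tissues, and the numbers were not taken to pair samples. With a replicate block, 25 genes were higher and 3 lower in colon in control mice, 23 higher and 2 lower in KO mice, and none was called by genotype. Over all 16558 genes, the block gave 2417 higher and 2916 lower in control mice, and 2573 and 2985 in KO mice. Depth limits the genes with few counts, and reads shared between copies limit the Ugt1a, Gstp and Gsta genes singly.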
